A study of Mus musculus with 2 samples.

Results

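The Hox genes of the mouse were described in teratomas grown from E14 embryonic stem cells (ESCs) and from E14 cells with a mutant Sox2 allele. They were taken as the rows of the deposited expression table whose symbol is Hoxa, Hoxb, Hoxc or Hoxd followed by a number alone, which gave 39 protein-coding genes among 45777 rows. The Hoxa cluster held 11 of them, the Hoxb cluster 10, and the Hoxc and Hoxd clusters 9 each. E14 cells are a line of mouse ESCs. The mutant cells, E14-Sox2TA/WT, carry the T258A change, alanine in place of threonine at residue 258, on 1 Sox2 allele. The mutation was made with CRISPR-Cas9, and mutant clones were picked from sorted single cells after sequencing of their DNA. Cells of each genotype were injected under the skin of 3 nude BALB/c-nu mice, and the tumours were taken at day 14.

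There was 1 polyA RNA-seq library for the E14 teratoma (genotype WT) and 1 for the Sox2 T258A teratoma. With 1 library per group no difference has a replicate check, and no p-value was computed. Differences between genotypes, culture histories, clones, tumours and pieces of a tumour cannot be told apart. The host is also mouse, so reads of host tissue in a tumour are not separated from those of the injected cells. The sources used here do not say how many tumours or clones went into a library. The tissue is labelled teratoma, whereas the extraction text of the labels names an ESC line. Transcripts of blood cells and of differentiated tissue were present in both libraries, with Hbb-bs, a beta globin gene, at 141 in the E14 and 162 in the Sox2 T258A library in TPM, a level scaled for transcript length and depth. Reads on genes numbered 50529171 and 49030281 in the same order. Sox2 had 14585 and 8623 reads, and its alleles are not separated in the files. Below, values are given for the E14 library first and the Sox2 T258A library second, and a fold is the ratio of TPM, Sox2 T258A over E14. Intervals are 95% Clopper-Pearson intervals from the read counts, which cover counting error only and compare the libraries rather than the conditions.

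Hox genes encode homeodomain transcription factors that give cells their position along the head-to-tail axis of the embryo. Their order along each cluster follows the order in which they come on in time and space, from the low paralog numbers of the hindbrain and neck to the high numbers of the lumbar region, tail, limb ends and urogenital tract. The clusters are closed by Polycomb proteins in ESCs and are opened by signals such as Wnt, FGF and retinoic acid, partly through the Cdx factors, while the forebrain and midbrain express no Hox genes.

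RefSeq promoters on GRCm38.p6, the build of the files, were at hand for 22 of the 39 genes, as 24 windows of 300 bases that run from 250 bases before a transcript start to 50 bases from it. The start is that of a RefSeq transcript, which in 16 of the 20 genes with 1 window is also the outermost start of the gene. The window of Hoxb8 starts from a site 2504 bases inside the gene as annotated, and that of Hoxd10 from a site 7618 bases inside. Promoters of 5 genes are shown, since these genes mark the span of the results below. Hoxa2 and Hoxd10 had the smallest differences, Hoxa5 had the largest fold among Hox genes that reached a TPM of 10, Hoxb8 comes from the middle of a cluster, and Hoxd13 went from no reads to a high level. Capitals mark matches on either strand to TTTATG, the core letters of a Cdx motif, TGATNNAT, those of a Hox-Pbx motif, and AGGTCA, the repeat unit bound by retinoic acid receptors. All are written 5′ to 3′ on the gene's strand.
Hoxa2, chr6:52164782-52165081, minus strand: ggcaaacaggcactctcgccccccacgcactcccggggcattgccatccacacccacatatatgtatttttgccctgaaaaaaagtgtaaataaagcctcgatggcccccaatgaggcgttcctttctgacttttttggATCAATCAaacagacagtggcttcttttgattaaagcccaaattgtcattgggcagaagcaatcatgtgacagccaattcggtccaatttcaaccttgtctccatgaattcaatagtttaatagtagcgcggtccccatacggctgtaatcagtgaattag
Hoxa5, chr6:52204538-52204837, minus strand: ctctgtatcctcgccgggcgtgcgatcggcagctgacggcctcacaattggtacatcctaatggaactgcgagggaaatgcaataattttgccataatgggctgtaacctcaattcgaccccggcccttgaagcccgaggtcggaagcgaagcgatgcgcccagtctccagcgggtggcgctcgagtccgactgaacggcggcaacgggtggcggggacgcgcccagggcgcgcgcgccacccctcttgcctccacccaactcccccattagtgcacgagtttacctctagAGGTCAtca
Hoxb8, chr11:96281655-96281954, plus strand: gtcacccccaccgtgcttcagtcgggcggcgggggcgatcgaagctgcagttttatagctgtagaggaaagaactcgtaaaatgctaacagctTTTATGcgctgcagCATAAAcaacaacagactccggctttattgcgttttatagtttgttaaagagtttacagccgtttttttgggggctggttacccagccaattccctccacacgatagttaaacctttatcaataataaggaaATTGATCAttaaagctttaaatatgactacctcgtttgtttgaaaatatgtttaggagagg
Hoxd10, chr2:74691641-74691940, plus strand: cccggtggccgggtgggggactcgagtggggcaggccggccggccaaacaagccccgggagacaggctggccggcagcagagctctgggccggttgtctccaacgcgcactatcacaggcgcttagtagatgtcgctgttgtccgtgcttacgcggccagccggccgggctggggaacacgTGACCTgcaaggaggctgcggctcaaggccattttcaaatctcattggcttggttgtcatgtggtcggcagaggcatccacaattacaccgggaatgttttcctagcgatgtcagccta
Hoxd13, chr2:74667975-74668274, plus strand: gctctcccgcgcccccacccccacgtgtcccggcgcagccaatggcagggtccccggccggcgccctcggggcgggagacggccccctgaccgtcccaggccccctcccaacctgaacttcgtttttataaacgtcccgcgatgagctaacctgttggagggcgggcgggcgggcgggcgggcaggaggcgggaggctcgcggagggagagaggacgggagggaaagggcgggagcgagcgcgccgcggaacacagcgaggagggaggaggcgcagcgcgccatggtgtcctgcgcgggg

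The Cdx letters were found 2 times in the Hoxb8 promoter, the Hox-Pbx letters in those of Hoxb8 and Hoxa2, and the receptor letters in those of Hoxa5 and Hoxd10. The Hoxd13 promoter held none of these letters in this window, and it was rich in G and C, at 74.3%, with 37 CpG sites. Over all 24 Hox promoters the median was 57.7% G and C and 14.5 CpG sites, against 52.7% and 7 over 32851 promoters. The Cdx letters stood in 5 of the 24 Hox promoters, or 20.8%, and in 11.9% of all promoters. The Hox-Pbx letters stood in 4, or 16.7%, against 8.85%, and the receptor letters in 7, or 29.2%, against 16.3%. In the Hoxd3 promoter the Cdx and receptor matches overlap. These are matches of letters and not measured binding sites.

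Hox RNA was higher in the Sox2 T258A library throughout the family. Of the 39 genes, 38 had a higher TPM there, 0 had a lower TPM, and Hoxc12 had 0 reads in both libraries. Among all 29148 genes with reads in at least 1 library, 53.9% were higher in the Sox2 T258A library. Summed over the 39 genes, TPM was 50.04 in the E14 and 216 in the Sox2 T258A library, a 4.32-fold difference, from 2706 and 13268 reads. On the log2(TPM + 1) scale the median difference was 1.41 over the 39 genes, against -0.058 over the 18558 genes that reached a TPM of 1 in either library. Most Hox genes lie at low levels, and over the 6980 genes whose higher TPM was from 1 to 10, the median was 0.22. In bulk RNA, more cells with Hox expression and more Hox RNA per cell cannot be told apart.

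Levels were low, so few Hox genes reached the filter that the study set for differential expression, a fold above 2 and a TPM of 10 or more in either library. Hoxa2, Hoxa5, Hoxb2 and Hoxb3 reached the TPM, and 3 of these 4 genes were more than 2-fold higher, all but Hoxa2. Of all 11578 genes at that TPM, 10.8% were more than 2-fold higher. Only Hoxb2 reached it in the E14 library, so the other 3 entered through the library in which they were high. Between a TPM of 1 and 10 lay 28 Hox genes, of which 27 were more than 2-fold higher, against 33.4% of the 6980 genes in that range. Here too the count leans on the filter, because 18 of the 32 Hox genes that reached a TPM of 1 did so through the Sox2 T258A library alone. Of the 30 Hox genes with reads in both libraries, whatever their level, 28 had an interval wholly above 2-fold, and the exceptions were Hoxa2 and Hoxd10. The matching share of all genes was not computed, so this count only describes the Hox genes.

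**Figure D1:**
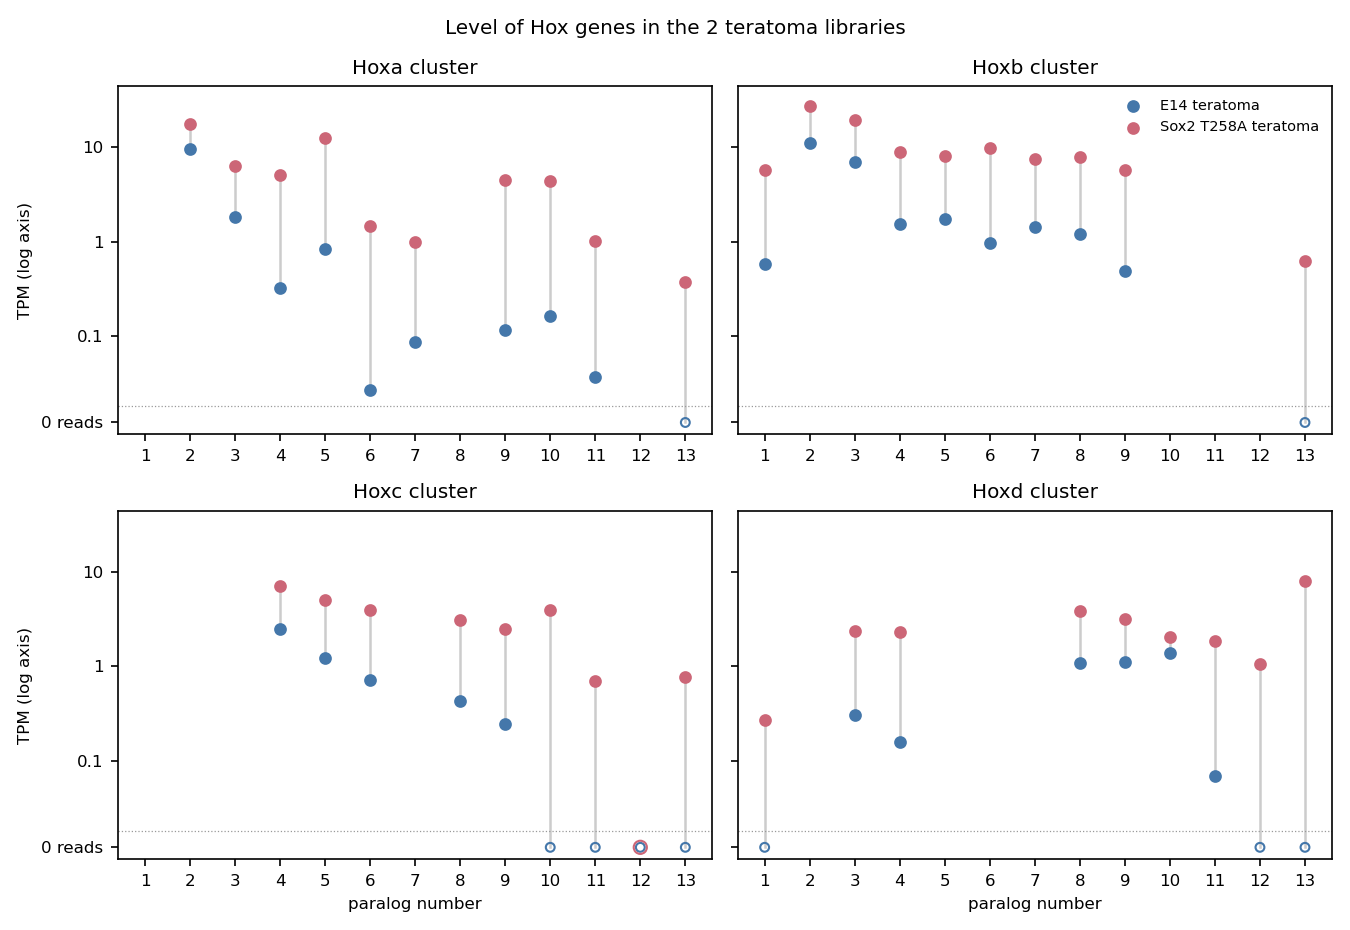
TPM of Hox genes (log axis) by paralog number in the 4 clusters, with the E14 and Sox2 T258A libraries as separate points joined by a line, and open circles at the bottom for 0 reads. Every gene shown with reads lies higher in the Sox2 T258A library, and 9 genes have 0 reads in the E14 library.

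The anterior genes, paralog groups 1 to 4, held most Hox RNA and differed least. Their summed TPM was 36.7 and 111, a 3.02-fold difference (2.87 to 3.17), and all but Hoxd1 had reads in both libraries. Hoxb2, which acts in the hindbrain, was the highest Hox gene in both libraries, at a TPM of 11.1 and 27.8, 2.51-fold higher (2.24 to 2.82). Hoxa2, which sets the identity of the second pharyngeal arch, was next in the E14 library at 9.76 and stood at 17.9 in the Sox2 T258A library. Its 1.84-fold difference (1.63 to 2.07) was the smallest of the anterior genes. Hoxb3 followed, at 6.99 and 19.4, or 2.77-fold (2.52 to 3.05). These 3 genes gave most of the Hox RNA of the E14 library, and each was under 3-fold higher.

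The remaining anterior genes were lower in the E14 library, and their folds ranged widely. Hoxb1, which specifies a hindbrain segment and the facial motor neurons, had a TPM of 0.582 and 5.73, or 9.85-fold (6.81 to 14.7). Hoxd1 had 0 and 14 reads, too few to place it closely. Hoxa3, needed for the thymus and parathyroid, had a TPM of 1.84 and 6.41, and Hoxd3 had 0.304 and 2.39. Group 4 showed 2 patterns. Hoxb4 at 1.55 and 8.97 and Hoxc4 at 2.52 and 7.07 were measurable in both libraries. Hoxa4 had 12 and 208 reads, at 0.319 and 5.04, and Hoxd4 had 10 and 161 reads, at 0.157 and 2.34. Hoxa4 was 15.8-fold higher (8.85 to 31.0) and Hoxc4 2.81-fold (2.28 to 3.50), and these intervals do not overlap although the genes are paralogs. Hoxa3 spans Hoxa4, Hoxa5 and Hoxa6 in the annotation, Hoxb3 overlaps Hoxb4, and Hoxd3 overlaps Hoxd4. In each case the overlapping Hox genes lie on the same strand. The split of reads among them is therefore uncertain whether or not counting used strand.

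The central genes, paralog groups 5 to 8, act in the neck and trunk, and all 11 had reads in both libraries and were more than 2-fold higher. Of all genes that reached a TPM of 1 in either library, 19.3% were more than 2-fold higher. Hoxa7 lay just under that TPM, at 0.999 in the Sox2 T258A library. Their summed TPM was 9.72 and 64.7, or 6.65-fold (6.05 to 7.34). Hoxa5, needed for the airway and the neck vertebrae, stood out at a TPM of 0.827 and 12.7, a 15.4-fold difference (11.1 to 21.98) from 38 and 643 reads. Its neighbours Hoxa6, with 2 and 90 reads, and Hoxa7, with 4 and 53, were nearly absent from the E14 library, and Hoxa6 was 56.0-fold higher with a wide interval (15.1 to 470). Genes of the Hoxb cluster were already measurable there. Hoxb5 was at a TPM of 1.74 and 8.13, Hoxb6 at 0.962 and 9.91, Hoxb7 at 1.42 and 7.47, and Hoxb8 at 1.199 and 7.94. In the Sox2 T258A library these 4 genes lay within a narrow band of TPM, and Hoxb6 had the largest fold among them, 10.3 (7.23 to 15.2). In the Hoxc cluster, whose central genes pattern the brachial and thoracic levels, Hoxc5 was at 1.23 and 5.02, Hoxc6 at 0.721 and 4.03, and Hoxc8 at 0.428 and 3.11. Hoxd8, the only central gene of its cluster, was at 1.08 and 3.86, and its 3.57-fold difference (2.63 to 4.90) was the smallest of the central genes.

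The posterior genes, paralog groups 9 to 13, were the lowest in the E14 library and had the largest summed difference. Their summed TPM was 3.60 and 40.8, or 11.3-fold (9.77 to 13.2). Group 9, which is expressed in the trunk and in blood progenitors, had reads in both libraries for all 4 members. Hoxa9 had 9 and 390 reads, at a TPM of 0.114 and 4.56, or 39.99-fold (20.9 to 88.1). Hoxb9 was at 0.491 and 5.78, or 11.8-fold (8.22 to 17.4). Hoxc9 was at 0.242 and 2.49. Hoxd9 was at 1.10 and 3.19, only 2.89-fold (2.13 to 3.98). The Hoxa member therefore differed most in this group and the Hoxd member least, with intervals that do not overlap.

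Groups 10 and 11, which pattern the lumbar and sacral levels, the limbs and the urogenital tract, were uneven. Hoxa10 had 10 and 264 reads, at a TPM of 0.162 and 4.37, or 27.0-fold (14.4 to 56.9). Hoxc10, a gene of the hindlimb level, had 0 and 206 reads and was at least 61.7-fold higher against the 3 reads per library that a count of 0 allows. Hoxd10 was the exception of the family, at 1.39 and 2.05 from 62 and 112 reads, a 1.48-fold difference with an interval from 1.07 to 2.05. Hoxd11, which overlaps Hoxd10 in the annotation, had 7 and 180 reads, at a TPM of 0.0688 and 1.84, or 26.8-fold (12.7 to 67.6). The neighbours Hoxd9 and Hoxd10 were thus the highest posterior genes of the E14 library and had the smallest folds of the range. Hoxd10 and Hoxd11 overlap on the same strand, so the split of reads between them is uncertain, and so are their folds. Hoxa11, needed in the forearm and kidney, had 3 and 63 reads, or 28.1-fold (9.19 to 140), and Hoxc11 had 0 and 18.

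Groups 12 and 13, which act at the tips of the limbs, the tail and the hindgut, had 0 reads in the E14 library for every member. Hoxd13, the digit and genital gene at the end of its cluster, had 554 reads in the Sox2 T258A library, at a TPM of 8.01, so that it was at least 166-fold higher. Its 3-read limit in the E14 library corresponds to a TPM of 0.0483. The other members were lower. Hoxd12 had 73 reads at a TPM of 1.07, and Hoxc13, a gene of hair and nails, had 51 reads at 0.769. Hoxb13, known from the prostate and tail, had 23 reads at 0.617, and Hoxa13 had 14 at 0.371. Hoxd13 gave 554 of the 642 reads of group 13, so the sum of that group is mainly this gene. Altogether 8 of the 38 Hox genes with reads, or 21.1%, had them in the Sox2 T258A library alone, a share near the 15.6% of all genes with reads in either library. Of these 8 genes, 7 fell in groups 10 to 13, which have 12 genes.

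**Figure D2:**
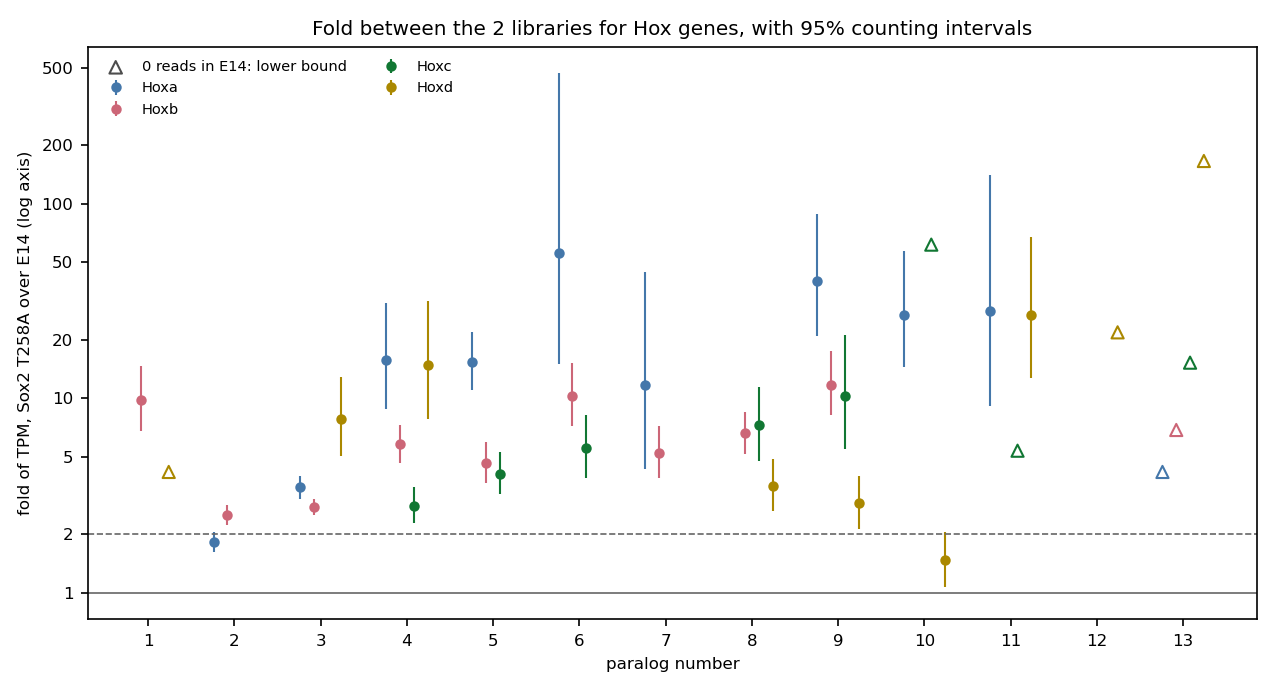
Fold of TPM, Sox2 T258A over E14 (log axis), for Hox genes by paralog number, with 95% Clopper-Pearson counting intervals and open triangles at the lower bound for genes with 0 reads in the E14 library. Lines mark no difference and 2-fold. Hoxa2 at 1.84-fold and Hoxd10 at 1.48-fold are the genes nearest to no difference, and the bound of Hoxd13 is 166-fold.

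The make-up of Hox RNA differed as well as its amount. Groups 1 to 4 held 73.4% of the summed Hox TPM of the E14 library and 51.2% of that of the Sox2 T258A library, groups 5 to 8 held 19.4% and 29.9%, and groups 9 to 13 held 7.20% and 18.9%. As shares of Hox reads, groups 1 to 4 held 75.3% (73.6 to 76.9) and 53.6% (52.7 to 54.4), and groups 9 to 13 held 7.02% (6.09 to 8.05) and 20.1% (19.4 to 20.8). The intervals of the libraries do not overlap, so the shift toward higher paralog numbers exceeds counting error. The medians by range depended on the number added to TPM. With 1 added, the median log2 ratios were 1.38, 1.55 and 1.02 for groups 1 to 4, 5 to 8 and 9 to 13, so that the posterior genes were lowest, and with 0.1 added they were 2.0, 2.57 and 3.08, so that they were highest. Most posterior genes had a TPM under 1 in the E14 library, where adding 1 shrinks a ratio most. As raw ratios, with bounds for genes at 0 reads, the medians were 4.36-fold, 6.62-fold and 15.3-fold. By cluster the make-up was closer, with the Hoxb cluster at 52.0% and 47.1% of summed TPM and the Hoxa cluster at 29.6% and 28.8%. The Hoxc cluster held 10.3% and 12.6%, and the Hoxd cluster 8.20% and 11.6%.

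Across the 38 genes with reads, Spearman's rho between paralog number and fold, with bounds in place of folds against 0 reads, was 0.43, and it was 0.40 over the 30 genes with reads in both libraries. Paralog number and TPM had a rho of -0.67 (E14) and -0.54 (Sox2 T258A) over the 39 genes. The TPM of the E14 library and that of the Sox2 T258A library had a rho of 0.78. These values describe genes of the same libraries, which share clusters and overlapping reads and are not replicates. A low count in the E14 library enters both the level and the fold. By paralog group, with group 1 not given, the ratio of summed TPM was 2.196 in group 2 and 3.09 in group 3. It was 5.16 in group 4, 6.82 in group 5, 9.02 in group 6, 5.62 in group 7, 5.50 in group 8, 8.21 in group 9 and 6.72 in group 10. It reached 33.96 (18.2 to 71.7) in group 11, from 10 and 261 reads, and was at least 21.9 in group 12 and at least 192 in group 13. Several of these ratios rest on 1 gene, and that of group 7 is 11.7 without Hoxb7, its highest gene, so no order of the groups is read from them.

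**Figure D3:**
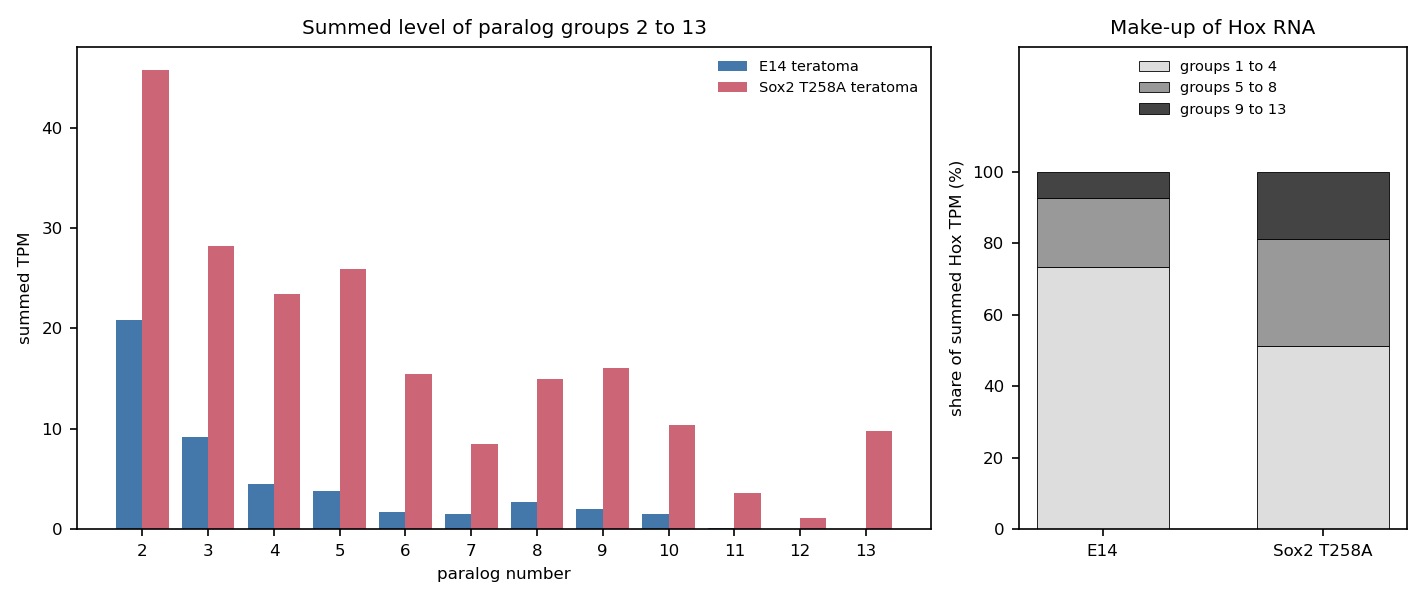
Summed TPM of the Hox genes by paralog group, 2 to 13, in each library (bars, left), and the share of the summed Hox TPM held by paralog groups 1 to 4, 5 to 8 and 9 to 13 (stacked bars, in percent, right). The sum is higher in the Sox2 T258A library in every group shown, and the share of groups 9 to 13 is 7.20% for E14 and 18.9% for Sox2 T258A.

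All 4 clusters were higher in the Sox2 T258A library, and they lie on 4 chromosomes. The ratio of summed TPM was 4.21 (3.91 to 4.54) for Hoxa, 3.91 (3.69 to 4.15) for Hoxb, 5.30 (4.65 to 6.05) for Hoxc and 6.10 (5.28 to 7.07) for Hoxd. The median log2 ratios were 1.38, 1.89, 1.44 and 1.22 in that order. The median over the other genes of the same chromosome was -0.0098 on chromosome 6, -0.099 on 11 and -0.11 on 2. It was 0.34 on chromosome 15, the chromosome of the Hoxc cluster, where genes as a whole were higher. Relative to the chromosome's median, the Hoxc median was 1.09, against 1.44 without that step, and the medians of Hoxa, Hoxb and Hoxd were 1.39, 1.99 and 1.34. Genes that flank the clusters went in both directions. Among all 18558 genes that reached a TPM of 1, 47.5% were higher and 52.5% lower in the Sox2 T258A library, 19.3% higher and 18.9% lower by more than 2-fold. The lists from here on are read against these shares. A gene that reached a TPM of 1 in 1 library alone is always counted as higher there, so such counts lean on the filter. This holds for the shares as for the lists. Of 20 flanking genes that reached a TPM of 1, 12 were higher and 8 lower, 2 in each direction by more than 2-fold, with a median log2 ratio of 0.22. Among them Calcoco2, an autophagy receptor that flanks the Hoxb cluster, was at 2.13 and 21.1, and Chn1, a neuronal signaling gene, at 46.7 and 16.7.

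Noncoding genes inside or beside the clusters were mostly higher. Of 9 that reached a TPM of 1, 8 were higher, all by more than 2-fold, and the summed TPM of the list was 34.3 and 94.9. This count leans on the filter. Hoxaas3, Hoxa11os, Hoxb5os, Mir196a-1 and Gm53 reached a TPM of 1 through the Sox2 T258A library alone. Halr1, a long noncoding RNA near the Hoxa cluster, was at 12.9 and 41.9, and Hotairm1, a noncoding gene of that cluster, at 11.3 and 28.2. Hoxb3os, antisense in the Hoxb cluster, was the exception at 7.57 and 7.13, or 0.942-fold (0.732 to 1.21). Hotair, of the Hoxc cluster, had 0 and 26 reads, and Hottip, beside Hoxa13, had 0 and 16. Hoxb5os had 0 and 86 reads. In all, 20 Hox genes overlap other genes of the RefSeq annotation, several of these noncoding genes among them, so their reads cannot be told apart with certainty.

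Genes that act upstream of the Hox clusters were read from lists drawn up for this description. Cdx1 and Cdx2, homeobox genes that turn on trunk and tail Hox genes and also mark the intestine, had 0 reads in the E14 library. Cdx1 had 234 reads in the Sox2 T258A library, at a TPM of 4.97 and at least 70.0-fold higher, and Cdx2 had 165, at 2.85 and at least 49.4-fold higher. Cdx4 had 9 and 30 reads. The ParaHox genes of the brain went the other way, with Gsx1 at a TPM of 19.99 and 1.58 and Gsx2 at 2.84 and 0.477, while Pdx1 had 5 and 6 reads.

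In the list of retinoic acid synthesis, breakdown and receptors, 12 of 17 genes were higher, 10 of them by more than 2-fold (19.3% of all genes), and 1 was lower by more than 2-fold, with a median log2 ratio of 1.13. Crabp1 and Crabp2, which bind retinoic acid in the cell, were at 26.8 and 278 and at 44.2 and 216. Rarg, a retinoic acid receptor, was at 14.2 and 75.3, and Aldh1a1, a synthesizing enzyme, at 21.4 and 78.0. Among genes of axis elongation, 8 of 13 were higher (47.5% of all genes), 6 of them by more than 2-fold, with a median of 0.52. Several of the higher genes, Fgf4 among them, reached a TPM of 1 through the Sox2 T258A library alone, so the count leans on the filter. T (brachyury), which marks the primitive streak and tail bud, was at 4.73 and 40.1, Fgf4 at 0.584 and 15.1, Lin28a at 13.2 and 81.5, and Sall4 at 6.80 and 41.2. Fgf4, Lin28a and Sall4 are also expressed in ESCs, and markers of pluripotent cells were high in the same library, so their source was not tested. Genes of hindbrain segmentation were mixed, 6 of 10 higher, with a median of 0.37 that turned to -0.40 at a TPM of at least 10, and with Vgll2 at 2.71 and 0.573.

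The cofactors that bind DNA together with Hox proteins were mostly lower. Of 9 TALE genes 8 were lower (52.5% of all genes), 4 of them by more than 2-fold (18.9%), and their summed TPM was 475 and 263. Pbx3 was at 128 and 37.5, or 3.42-fold lower, and Meis2 at 47.2 and 28.4. Pbx2 was the only one higher, at 59.6 and 74.0. TALE genes are also expressed in neurons, whose markers were lower in the same library, and their part in these values was not tested. Polycomb genes, which keep Hox clusters closed, showed no common direction, with 11 of 26 higher and 15 lower and a median of -0.057 on TPM and 0.14 on FPKM. Eed was at 29.8 and 84.0, Cbx7, a Polycomb gene of ESCs, at 21.5 and 69.4, and Ezh2 at 62.3 and 83.1. Of 14 Trithorax and demethylase genes 10 were lower (52.5% of all genes), 4 of them by more than 2-fold (18.9%), with Ash1l at 23.6 and 7.75 and Kmt2c at 17.2 and 6.15, and Dpy30 was at 150 and 232.

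**Figure D4:**
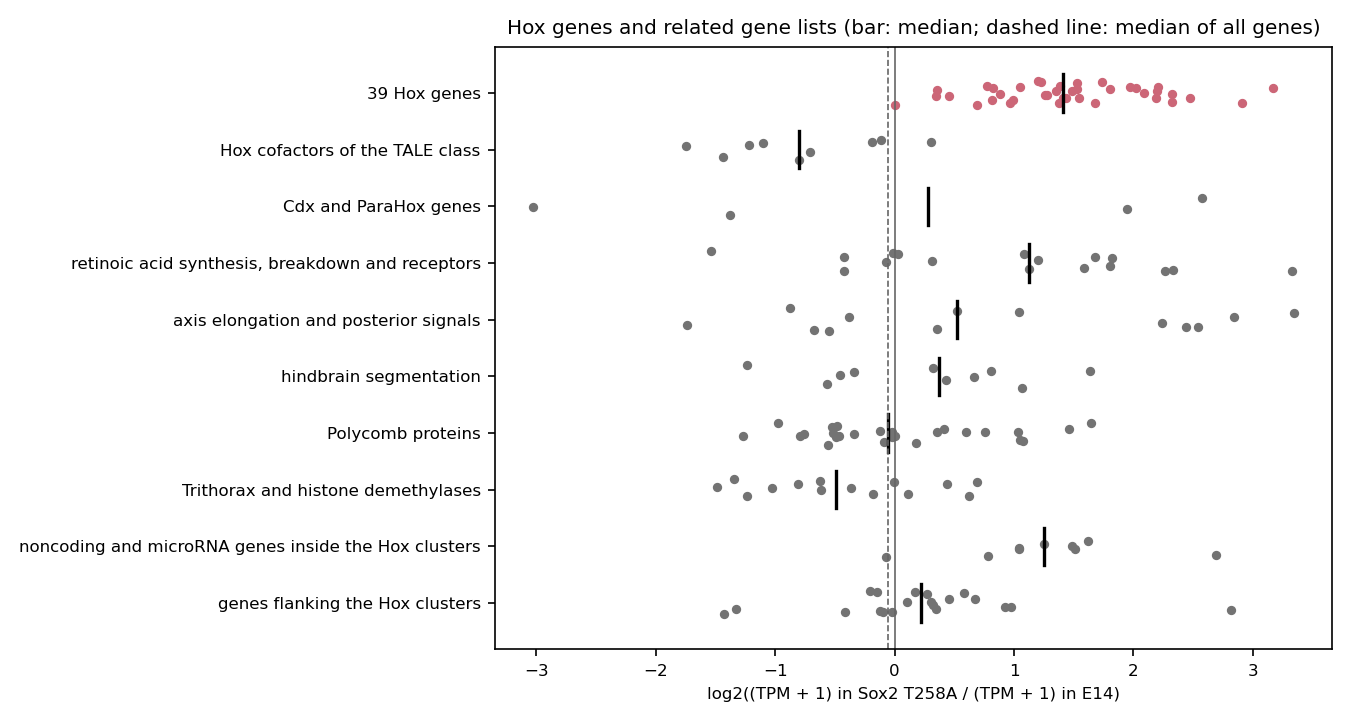
Difference on the log2(TPM + 1) scale, Sox2 T258A minus E14, of each Hox gene (red) and of each gene in the related lists that reached a TPM of 1 (grey), with a bar at the median of each list and a dashed line at the median of all genes, -0.058. The Hox genes have their median at 1.41, the noncoding genes of the clusters at 1.25 and the TALE cofactors at -0.80.

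Tissue makeup differed between the libraries, and its part in the Hox values was not tested. Tissue of the host mice may be part of this makeup, which was not tested either. All 9 neuron markers were lower by more than 2-fold, with a summed TPM of 2647 and 392, and of 10 forebrain and midbrain markers 8 were lower, at 284 and 64.6 in sum. Six6, an eye and forebrain gene, was at 33.8 and 0.419. Motor neuron and spinal cord markers were lower in 6 of 8, at 97.4 and 42.9 in sum. All 7 pluripotent cell markers were higher, at 76.3 and 1871, with Pou5f1 at 19.0 and 304.

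Among mesodermal lists, all 10 fibroblast and dermis markers were higher, at 620 and 1526. All 4 adipocyte markers that reached a TPM of 1 were also higher. The whole adipocyte list summed to 37.3 and 115, with Adipoq at 0 and 83 reads. Some of the adipocyte markers, Adipoq among them, reached a TPM of 1 through the Sox2 T258A library alone. Markers of limb and lateral mesenchyme, where posterior Hox genes are used, summed to 37.7 and 40.3, but 3 of 4 were higher and the list's median was 0.63 on the log2 scale. Hand2 was at 1.06 and 2.70 and Msx1 at 9.19 and 15.8, while Pitx1, a hindlimb gene, was at 18.7 and 8.07. Cartilage markers summed to 117 and 114, and 4 of 6 were higher, 3 of them by more than 2-fold. Those 3, Col10a1 among them, reached a TPM of 1 through the Sox2 T258A library alone. Col10a1, of mature cartilage, was at 0.133 and 3.87 and Col2a1 at 58.0 and 74.8, while Sox9, which other tissues also express, was at 44.1 and 16.9. Kidney and urogenital markers summed to 63.3 and 66.2, with 5 of 8 higher. The bladder lining markers in that list went apart, with Upk3a at 2.66 and 33.9 and Upk1b at 29.0 and 10.9, and Lhx1 was at 20.99 and 5.55. Skeletal muscle markers were lower in 6 of the 7 that reached a TPM of 1, and the whole list summed to 115 and 43.2. Among epithelia, all 8 intestinal markers that reached a TPM of 1 were higher, with Vil1 at 0.514 and 4.19. The whole intestinal list summed to 7.93 and 28.5, and squamous markers summed to 195 and 374. Most of the intestinal markers, Cdx1, Cdx2 and Vil1 among them, reached a TPM of 1 through the Sox2 T258A library alone, so the count leans on the filter. Lung and foregut markers summed to 145 and 71.0, a difference that is Nkx2-1, also on the forebrain list, at 74.2 and 0.789, while Foxj1 was at 61.8 and 58.7 and Trp63 at 6.96 and 6.43. Blood and macrophage markers summed to 336 and 364. Some marker lists had members with 0 reads in the E14 library. These were the intestinal list (3 of 9 genes, Cdx1 and Cdx2 among them), adipocytes (2 of 6) and lung (2 of 6). Cartilage (1 of 8), squamous epithelium (1 of 7) and forebrain and midbrain (1 of 11) had them too. Of all genes with reads in either library, 15.6% had them in the Sox2 T258A library alone, and no tissue pattern is read from these small counts.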

How the data were processed

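PolyA RNA of 1 E14 and 1 Sox2 T258A teratoma library was sequenced by the authors. The submitters' processing notes name bcl2fastq 2.20.0, Trimmomatic, HISAT2 2.1.0 and StringTie 2.1.3b with the builds hg19 and mm10, and the files use mm10. The authors deposited raw read counts per gene, FPKM (counts scaled by length and library size) and TPM (rescaled to a fixed sum). TPM ratios were 0.871 times FPKM ratios for every gene. Strand use in counting is not given in the sources used here.

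Folds are ratios of TPM, with Clopper-Pearson intervals of the read counts (50529171 and 49030281 in total) scaled to the TPM ratio. A count of 0 was set to 3 reads for bounds. Medians use log2 of TPM plus 1 over all 39 Hox genes, or over members of other lists with a TPM of at least 1 in either library. Sums of TPM over a list use all of its genes, whatever their TPM. Hox genes are given by name, and in each list the 3 highest and the 2 most different genes could be named, and every gene of the TALE, Cdx and cluster noncoding lists. The members and lists were chosen with earlier results of these data known. Positions came from RefSeq GRCm38.p6, in which 45675 of 45777 identifiers matched. Of 25 noncoding and 26 flanking genes listed, 19 and 24 were in the table. Alternatives covered scaling (FPKM, library total, edgeR TMM, median-of-ratios), pseudocount, filters and the fold threshold. Some genes are not reported here. Scripts were tested on simulated data. Values were computed with edgeR 4.0.16 in R 4.3.3 and with pandas 2.3.3, scipy 1.17.1, numpy 2.4.6 and matplotlib 3.10.9 in Python 3.11.15.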

Additional observations from a re-analysis of the deposited data

How the results depend on the processing

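No paired analysis was possible because each genotype has 1 library, and none could be left out. The settings gave 251 values for counts, medians, sums and shares. Of these, 196 lay inside the interval of the reported value or, for counts, differed by at most 1.5 times. Another 55 moved, and no value whose interval excludes 0 changed sign. Among the 196 are 9 medians, of 6 lists, that did change sign, all with intervals that span 0. At a TPM of at least 10 these were -3.03 for Cdx and ParaHox genes, -0.40 for hindbrain segmentation, -0.052 for cartilage and -1.33 for kidney. On FPKM they were 0.14 for Polycomb genes and 0.12 for lung. The Polycomb median was 0.0016 centred on all genes, and that of lung 0.012 with TMM and 0.19 without a filter. Of 90 values for single genes, 8 moved. Hoxa2 was 2.11-fold higher on FPKM and 2.11-fold on library totals, past the threshold it misses on TPM. The 3 genes called at a TPM of at least 10 became 1 above 3-fold and 36 without a filter. The cause was not tested where it does not follow from the setting. The median log2 ratio of all Hox genes became 2.62 with a pseudocount of 0.1, 1.11 on FPKM, 1.03 with TMM and 2.82 with genes at 0 reads at their bound. With a pseudocount of 0.1 it was 3.04, 2.55, 2.60 and 2.62 for Hoxa, Hoxb, Hoxc and Hoxd, 2.0, 2.57 and 3.08 for groups 1 to 4, 5 to 8 and 9 to 13, 1.76 for noncoding genes and 2.65 for adipocytes. With TMM it was 1.2 for groups 1 to 4, 0.67 for groups 9 to 13 and 1.27 for adipocytes. On FPKM it was 1.19 for groups 5 to 8 and 1.35 for adipocytes. At a TPM of at least 10 it was 2.91 for groups 5 to 8, and without a filter 0.40 for noncoding genes. The order of the paralog ranges by median thus depends on the pseudocount.

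Without its top gene, the summed ratio was 1.84 for group 2, 4.11 for 3, 4.43 for 5, 11.7 for 7, 4.61 for 8 and 4.36 for 10. On library totals it was 2.61 for group 2, 3.34 for 3, 6.15 for 4 and 10.6 for 9. As shares of reads, Hoxa held 31.7% and 29.8% (E14, Sox2 T258A), and groups 1 to 4 held 75.3% and 53.6%, groups 5 to 8 held 17.7% and 26.3%. In the Sox2 T258A library Hoxb held 45.4%, Hoxd 12.6% and groups 9 to 13 held 20.1%. Without Hoxb2, the shares of summed TPM were 38.0% and 33.1% for Hoxa, 38.3% and 39.2% for Hoxb, 13.2% and 14.4% for Hoxc, 10.5% and 13.3% for Hoxd, 65.8% and 44.0% for groups 1 to 4, 25.0% and 34.3% for groups 5 to 8, and 9.25% and 21.7% for groups 9 to 13.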

Other observations

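Other rows of the table that lie inside the 4 Hox clusters and belong to none of the lists were read after the values of the Hox genes were seen. There were 13, mostly uncharacterized long noncoding RNAs, and all 13 were higher in the Sox2 T258A library, with a summed TPM of 8.33 and 36.4. Among all genes with reads in either library, 53.9% were higher there. In the E14 library 6 of the 13 had 0 reads, against 15.6% of all genes with reads in either library. Some rest on very few reads, with LOC115490410 and Gm29905 at 0 and 3 reads each. Mira, beside Hoxa7, had 4 and 141 reads, at a TPM of 0.176 and 6.54. LOC115490409, which lies within Hoxa3, was at 1.29 and 7.55, and Gm15050, also within Hoxa3, at 1.59 and 6.14. Gm30134, a noncoding gene next to Hoxb13, had 0 and 43 reads. Since Hoxa3 overlaps several of these rows, their reads may in part be those of Hox transcripts, which was not tested.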
